A study of Mus musculus with 6 samples.

Results

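The genes described here are 40 genes of protein folding in the endoplasmic reticulum (ER) and of the unfolded protein response, chosen by name from a list of ER chaperones, oxidoreductases, degradation factors and stress sensors, out of 55536 genes in a count table of mouse pancreatic islets. All 40 were found by symbol, and all 40 passed the filter on low counts. The libraries are polyadenylated RNA of whole islets isolated from C57B1/6J mice, 3 libraries per genotype. Control mice were Klf4+/+;Gcg-iCre and knockout mice Klf4fl/fl;Gcg-iCre. Gcg-iCre, present in both groups, places Cre under glucagon control, so that deletion is directed to alpha cells, a minority of the islet. The labels give neither age nor sex, no treatment, and no statement that each library came from 1 animal, so the p-values measure the spread between these libraries. The comparison addresses which islet transcripts depend on the transcription factor KLF4 in alpha cells.

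Secreted proteins such as insulin and glucagon enter the ER through the SEC61 translocon, where chaperones and disulphide isomerases fold them. Proteins that fail to fold are returned to the cytosol and destroyed, a route called ER-associated degradation (ERAD). When unfolded proteins accumulate, the sensors IRE1 (encoded by Ern1), ATF6 and PERK (Eif2ak3) raise chaperone and ERAD transcripts and slow translation. Beta cells, with their heavy load of proinsulin, are a textbook case of a cell type that depends on this response.

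Totals ran from 101277200 to 110243918 counts per library, and normalized counts below are scaled by DESeq2 size factors. Klf4 itself was at 2681 ± 592 in control and 2386 ± 137 in knockout libraries (SD, n = 3 each). Its log2 fold change was -0.17 with an adjusted p of 0.774, so its whole-islet count did not separate the genotypes. Xist was at 77938 to 108105 in the control libraries and at 12.4 to 30.2 in the knockout libraries, and Ddx3y, on the Y chromosome, at 0 in each control and 5599 to 6265 in each knockout library: sex and genotype cannot be told apart here. Islet identity was clear, with 18711400 to 21810070 normalized counts over 8 beta-cell markers. Alpha-cell markers, of the targeted cells, summed to 4114496 to 5919909 in controls and 3048760 to 3745977 in knockouts, and 4 of 7 passed as lower. Of 8 macrophage markers 4 passed as higher, but their sums overlapped, at 11488 to 12604 in controls and 12034 to 14138 in knockouts. Acinar markers, of the enzyme-secreting pancreas, summed to 665053 to 1352030 in controls and 1682605 to 2383797 in knockouts, and mesenchymal markers to 51698 to 68986 and 98051 to 104531. Hepatocyte markers stood at 88191 in knockout replicate 1, at 3255 in knockout replicate 2 and at 400 to 588 in the other 4 libraries. In bulk tissue, fewer cells of a type and less RNA per cell cannot be told apart.

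None of the 40 genes passed an adjusted p of 0.05 between knockout and control (DESeq2), where 2.19% of all genes tested did (389 of 17797; 1.53% higher and 0.657% lower in knockouts). In edgeR's quasi-likelihood test the count was also 0, against 0.115% of all genes. At an unadjusted p under 0.05 there were 10 of the 40 genes in DESeq2 and 7 in edgeR, against 9.03% and 9.48% of all genes. The median log2 fold change of the 40 genes was -0.08, with 30 negative and 10 positive values, beside -0.007 over the 15811 genes whose mean normalized count reached 50. Single values ran from -0.37 (Dnajb9) to 0.69 (Derl3). The 95% intervals of 32 genes lay inside ±0.5 on the log2 scale, and those of 39, all but Derl3, inside ±1.

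The largest pattern among the 40 genes was not between genotypes but within the controls. Control replicate 3 held the highest count of all 6 libraries for 35 of the 40 genes, whereas it held the highest for 25.6% of all genes at that level of expression. Relative to the other controls it was higher by a median of 0.43 on the log2 scale, with 39 of 40 genes on that side; over all genes the median was 0.02. Per library, the median deviation of the 40 genes from the mean of the 6 libraries was -0.08, -0.11 and 0.31 in control replicates 1 to 3, and -0.04, -0.05 and -0.02 in the knockouts. The knockouts lay close together, with a median standard deviation of 0.06 on the log2 scale, against 0.26 among the 3 controls and 0.06 between control replicates 1 and 2. Together the 40 genes took 1.32% of all counts in control replicate 3 and 0.987% to 1.09% in the other 5 libraries. Control replicate 3 was singled out after these values were seen.

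**Figure D1:**
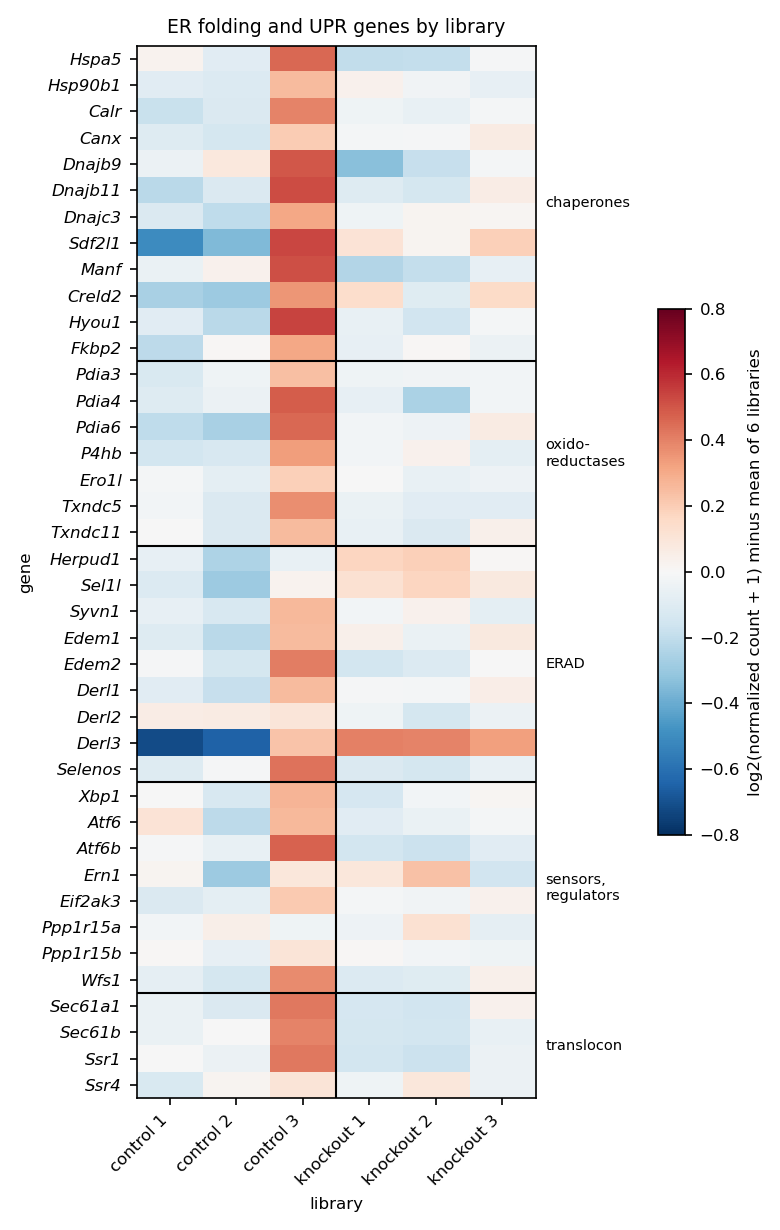
Heat map of 40 ER folding and unfolded protein response genes (rows, grouped by role) in 6 libraries (columns). Colour gives log2(normalized count + 1) minus the mean of the 6 libraries; control 3 is the red column, and it holds the highest value for 35 of the 40 genes.

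That library differed in other respects too. Its summed count over 9 immediate early genes was the lowest, 52236 against 72964 to 84782 in the other 5, and so was its Klf4 count, 2015. Its acinar and mesenchymal sums were also the lowest, and its beta-cell sum of 21810070 was the highest by a small margin over 21255060 in knockout replicate 2. Their part in the high ER transcripts was not tested.

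Without control replicate 3 the median log2 fold change of the 40 genes was 0.05 instead of -0.08, with 13 negative and 27 positive values. The sign differed from that of all libraries for 19 of the 40 genes, and 6 genes passed, all of them higher in the knockout: Derl3, Sdf2l1, Creld2, Sel1l, Herpud1 and Pdia6. In that fit 6.28% of all genes passed (952 of 15160), and 3.80% were higher. Without knockout replicate 1, the library with the hepatocyte signal, 0 of the 40 genes passed and the median was -0.08. Below, the value of each of the 40 genes without control replicate 3 is added where it changed the call or moved the log2 fold change by over 1.5 times.

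**Figure D2:**
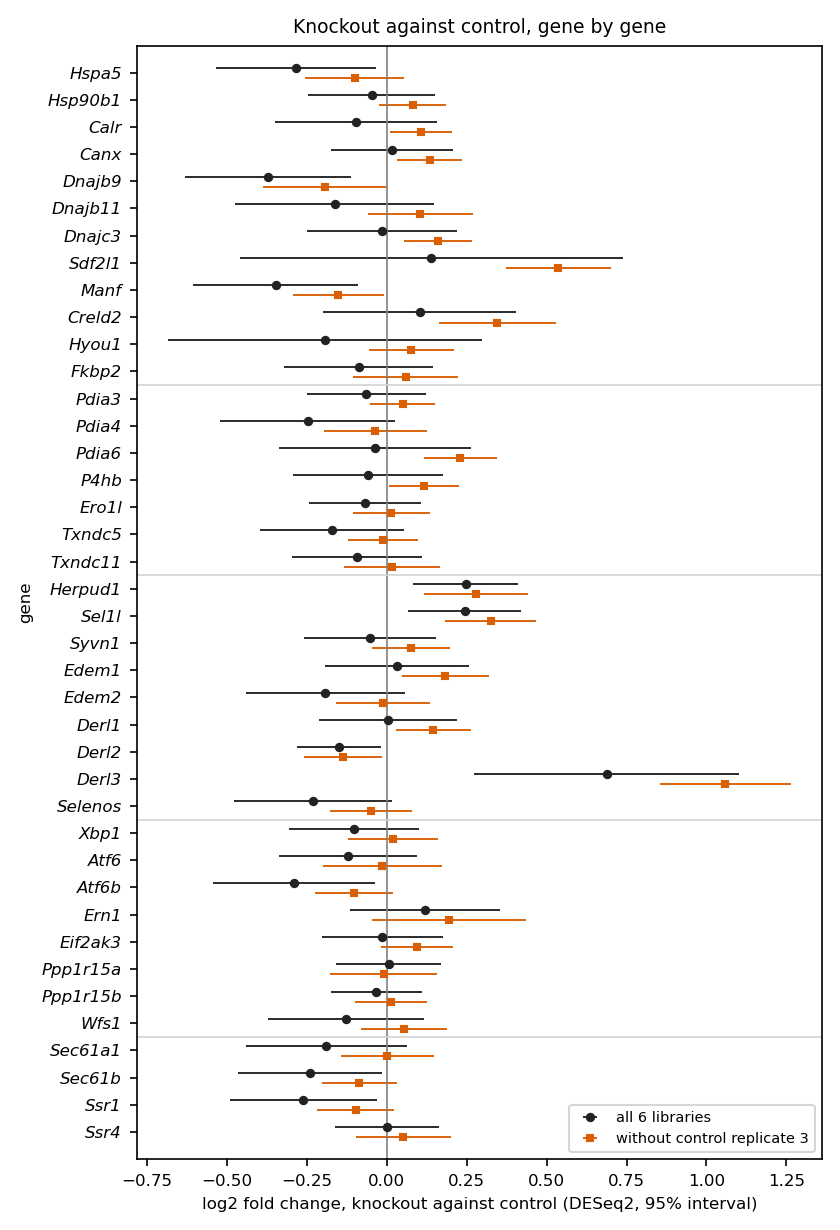
Log2 fold change of knockout against control for each of the 40 genes, with 95% intervals, from all 6 libraries (black circles) and without control replicate 3 (orange squares). Most black intervals include 0; Derl3 stands furthest to the right, at 0.69 with all libraries and at 1.06 without control replicate 3.

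The ER chaperones (12 genes) had a median log2 fold change of -0.09, and 0 of them passed. Without control replicate 3 the median was 0.09, and 2 passed as higher, Sdf2l1 and Creld2. Hspa5 (ENSMUSG00000026864, chr2:34771970-34777547, GRCm38), which encodes BiP, the main ER chaperone and the inhibitor of all the sensors, had normalized counts of 101666, 93286 and 136952 in the controls, in the order of their replicate numbers as throughout, and of 86802, 87080 and 98826 in the knockouts. Knockout replicate 3 lay between the controls, so the groups overlapped; the log2 fold change was -0.28 ± 0.13 (SE, DESeq2 adjusted p = 0.325), and -0.10 without control replicate 3. Dnajb9, a BiP cochaperone of the IRE1 branch, had the lowest value of the 40 genes. It was at 24522, 26937 and 35785 in controls and at 20114, 22299 and 25045 in knockouts, a log2 fold change of -0.37 ± 0.13 with an adjusted p of 0.126, passing without control replicate 1 (-0.48, adjusted p = 0.0388) and at -0.19 without control replicate 3 (adjusted p = 0.269). Manf, a secreted stress-responsive factor, was at 18965, 20133 and 28082 in controls and at 16722, 17250 and 18799 in knockouts, every knockout under every control (-0.35 ± 0.13, adjusted p = 0.168, and -0.15 without control replicate 3). Exons of Manf overlap those of 3 other genes, so its count is uncertain. Exon overlap with another gene was found for 14 of the 40 genes. The others are Hsp90b1, Dnajb9, Pdia3, Pdia4, Pdia6, Txndc5, Txndc11, Syvn1, Derl2, Eif2ak3, Ppp1r15a, Ppp1r15b and Sec61a1.

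Sdf2l1, a small partner of BiP and its cochaperones, had the highest log2 fold change of the group and the widest gap between control replicate 3 and the other controls among the 40 genes, 0.96 on the log2 scale. Its counts were 4432, 4933 and 9119 in controls and 6789, 6388 and 7182 in knockouts: control replicate 3 was above every other library and both other controls were below all knockouts. The log2 fold change was 0.14 ± 0.31 (adjusted p = 0.948), and 0.54 without control replicate 3 (adjusted p = 4.20e-08). Creld2, a stress-induced protein with isomerase activity, followed the same order, at 0.10 with all libraries and 0.35 without that one (adjusted p = 0.00672). Calr and Canx, the lectin chaperones of glycoproteins, had log2 fold changes of -0.10 and 0.02, and Hsp90b1, the ER member of the HSP90 family, of -0.05. They were at 0.11, 0.13 and 0.08 without control replicate 3. Hyou1, the exchange factor of BiP, was at -0.19 ± 0.25, and the cochaperones Dnajb11 and Dnajc3 at -0.16 and -0.01. Fkbp2, a prolyl isomerase, was at -0.09. Those 4 were at 0.08, 0.10, 0.16 and 0.06 without control replicate 3.

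All 7 oxidoreductases, the enzymes that form and rearrange disulphide bonds, had log2 fold changes between -0.25 and -0.04 with adjusted p-values of at least 0.517. Without control replicate 3 their median was 0.02, against -0.07 with all libraries. Then Pdia3 was at 0.05, P4hb at 0.12, Ero1l at 0.014 and Txndc11 at 0.016, all positive, and Txndc5 at -0.011. Pdia4 was the lowest of the 7, at 15036, 15617 and 22596 in controls and 15411, 13538 and 15895 in knockouts (-0.25 ± 0.14, and -0.04 without control replicate 3). Control replicate 3 alone stood apart. Pdia6 had the value nearest to 0, with 30931, 29731 and 48832 in controls and 34970, 34534 and 37205 in knockouts (-0.04 ± 0.15, adjusted p = 0.976). Without control replicate 3 its log2 fold change was 0.23 (adjusted p = 0.00361). P4hb and Pdia3, the 2 most abundant isomerases, stood at 99723 ± 19707 and 101483 ± 13576 in controls and at 95745 ± 3702 and 97084 ± 311 in knockouts (SD, n = 3 each). Ero1l, the oxidase that recharges them, had a log2 fold change of -0.07, and the thioredoxin-domain proteins Txndc5 and Txndc11 of -0.17 and -0.09.

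**Figure D3:**
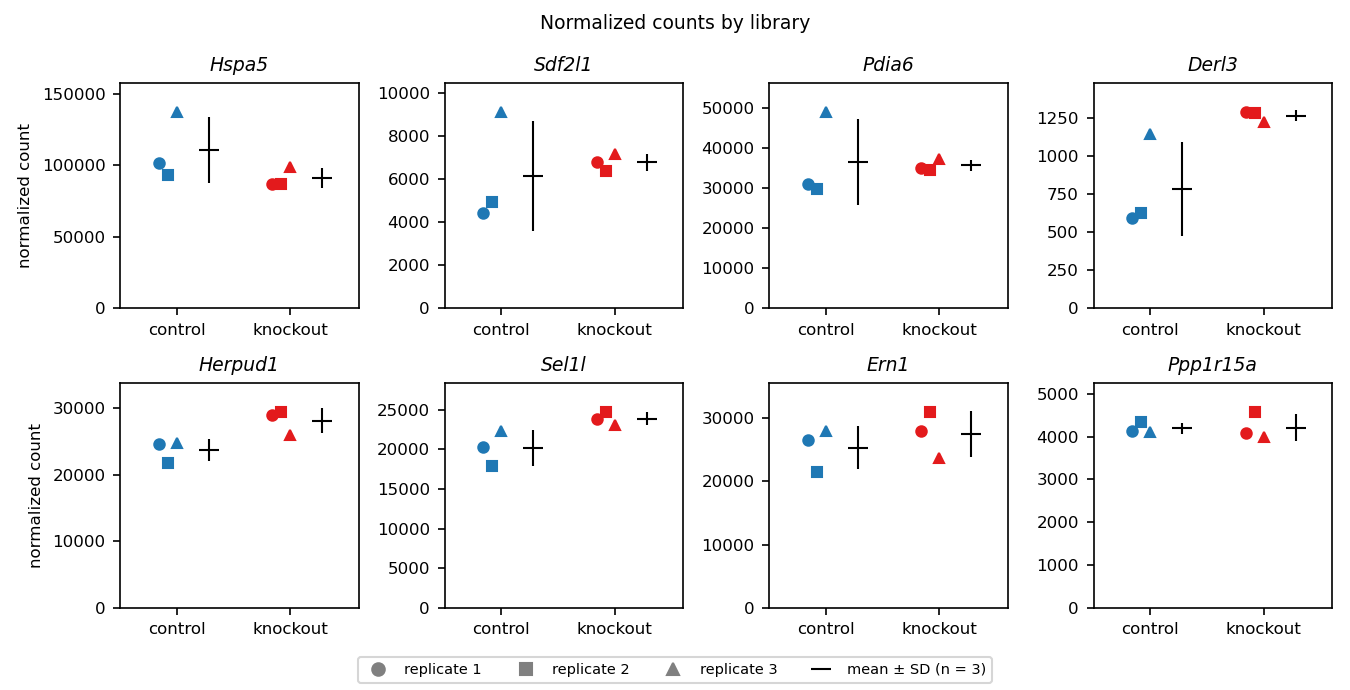
Normalized counts of 8 genes in each library (control blue, knockout red; the symbol gives the replicate), with mean ± SD of 3 libraries beside them. The triangle of control replicate 3 stands above the other controls for Hspa5, Sdf2l1, Pdia6 and Derl3, but not for Ppp1r15a, at 4100 beside 4139 and 4343.

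None of the 9 ERAD genes passed after adjustment. At an unadjusted p under 0.05, which 9.03% of all genes reached in DESeq2, there were 4: Derl3, Herpud1 and Sel1l higher and Derl2 lower in knockouts. Derl3 (ENSMUSG00000009092, chr10:75893413-75895941, GRCm38), a membrane protein of the channel that returns misfolded proteins to the cytosol, was at 594, 623 and 1145 normalized counts in controls and at 1290, 1287 and 1225 in knockouts. Every knockout library was above every control, and control replicate 3 was nearer to the knockouts than to the other controls. The log2 fold change was 0.69 ± 0.21 (SE), with a 95% interval from 0.27 to 1.10 and an adjusted p of 0.0508, just outside the threshold, and 0.368 in edgeR. Across 12 other settings the adjusted p for Derl3 lay between 9.00e-21, without control replicate 3 (log2 fold change 1.06), and 0.412, without control replicate 2 (0.54), and was under 0.05 in 5 of them. Without knockout replicate 1 the log2 fold change was 0.67 (adjusted p = 0.369). Acinar markers stood on the same side: none of the 12 passed, but 11 were higher in every knockout library than in every control. The acinar sums were 707155, 1352030 and 665053 in the controls and 1834597, 2383797 and 1682605 in the knockouts. Markers of lymphocytes and plasma cells, which secrete heavily too, summed to 2058 to 2212 in controls and 1895 to 1917 in knockouts. The part of other cell types in the Derl3 difference was not tested.

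Herpud1 and Sel1l were also higher in each knockout library than in each control. Herpud1, a scaffold of the ERAD ligase complex, was at 24619, 21769 and 24776 in controls and at 29060, 29399 and 25999 in knockouts, a log2 fold change of 0.25 ± 0.08 (adjusted p = 0.0953). At an adjusted p of 0.1 it and Derl3 were the only 2 of the 40 genes past the threshold, against 3.55% of all genes. Sel1l, the adaptor that holds that ligase together, was at 20243, 17869 and 22342 in controls and at 23834, 24656 and 23080 in knockouts (0.24 ± 0.09, adjusted p = 0.159). Both passed without control replicate 3, with log2 fold changes of 0.28 and 0.32 and adjusted p-values of 0.0181 and 0.000503. Herpud1 also passed without knockout replicate 3, at 0.30 (DESeq2 adjusted p = 0.0496). Their partner Syvn1, the ligase itself, had a log2 fold change of -0.05 (0.08 without control replicate 3), with 11425 ± 1715 normalized counts in controls and 11008 ± 422 in knockouts.

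The other ERAD genes had smaller or negative values. Derl2, a paralog of Derl3, was at 8111, 8123 and 8319 in controls and 7576, 7051 and 7504 in knockouts, so the knockouts were lower without overlap (-0.15 ± 0.07, adjusted p = 0.326); its exons overlap those of Mis12, and its count is uncertain. Selenos, a selenoprotein that recruits the extraction machinery, was at 6951, 7426 and 10076 in controls and 6896, 6776 and 7157 in knockouts (-0.23 ± 0.13, adjusted p = 0.493, and -0.05 without control replicate 3). Edem1 and Edem2, which mark misfolded glycoproteins, had log2 fold changes of 0.03 and -0.19, and Derl1 of 0.004. These were 0.18, -0.01 and 0.15 without control replicate 3.

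None of the 3 sensor genes passed. Ern1 was at 26606, 21458 and 27930 normalized counts in controls and at 27971, 30903 and 23634 in knockouts (0.12 ± 0.12, adjusted p = 0.82), Atf6 at 19343, 15487 and 21462 against 16789, 17217 and 17701 (-0.12 ± 0.11, adjusted p = 0.786). Eif2ak3 was at 8148, 8386 and 10208 in controls and 8751, 8664 and 9055 in knockouts (-0.015 ± 0.097, adjusted p = 0.982). These groups overlap in all 3 sensor genes. Without control replicate 3 the log2 fold changes of Ern1, Atf6 and Eif2ak3 were 0.20, -0.01 and 0.09. Over all 6 left-out libraries Ern1 ran from 0.01 to 0.22 and Atf6 from -0.24, without control replicate 2 (adjusted p = 0.0803), to -0.01. Xbp1, whose transcript is spliced by IRE1 to encode the active factor, was at 22819, 20904 and 27593 in controls and 20860, 22499 and 23070 in knockouts (-0.10 ± 0.10, adjusted p = 0.825, and 0.02 without control replicate 3). Gene counts hold no information on Xbp1 splicing, nor on the cleavage of ATF6 or the phosphorylation of PERK.

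Atf6b, the paralog of Atf6, had the lowest value among the sensors and regulators, at 6128, 5919 and 8531 in controls and 5569, 5467 and 5789 in knockouts. No knockout library reached the lowest control, and the log2 fold change was -0.29 ± 0.13 (adjusted p = 0.311), or -0.10 without control replicate 3. The phosphatase subunits Ppp1r15a and Ppp1r15b, which end the translational arrest set by PERK, had log2 fold changes of 0.006 and -0.03, or -0.0096 and 0.013 without control replicate 3. Ppp1r15a was at 4139, 4343 and 4100 in controls and 4077, 4569 and 3992 in knockouts, and was the only one of the 40 genes for which control replicate 3 was not above the mean of the other controls. Wfs1, an ER membrane protein whose loss causes diabetes in Wolfram syndrome, had a log2 fold change of -0.13 ± 0.12, and of 0.05 without control replicate 3.

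Of the 4 translocon genes, 2 had knockout libraries below all controls. Ssr1, a subunit of the translocon-associated protein complex, was at 25347, 24572 and 33961 in controls and at 22904, 22491 and 24561 in knockouts (-0.26 ± 0.12, adjusted p = 0.319). Sec61b, a subunit of the channel, was at 9751, 10085 and 13282 in controls and 9185, 9141 and 9701 in knockouts (-0.24 ± 0.11, adjusted p = 0.375). Both differences were smaller without control replicate 3, at -0.10 and -0.09. Sec61a1, the pore of the channel, had a log2 fold change of -0.19 ± 0.13, and of 0.0014 without control replicate 3. Ssr4, an X-linked subunit of the same complex as Ssr1, was at 14402, 15935 and 16824 in controls and 15309, 16676 and 15164 in knockouts, a log2 fold change of -0.0003 ± 0.083, and of 0.05 without control replicate 3.

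In all, 8 of the 40 genes had groups that did not overlap, 3 higher (Derl3, Herpud1, Sel1l) and 5 lower (Manf, Derl2, Atf6b, Sec61b, Ssr1) in knockouts. The share over all genes above that mean count of 50 was 18.0%, with 9.42% higher and 8.54% lower, so the count among the 40 genes was near the background.

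Levels were compared between genes as the deposited counts scaled to library total and to kilobases of annotated exon (counts per kb in units of CPM), in control libraries. The highest were P4hb at 332 ± 57.5, Calr at 326 ± 66.2 and Pdia3 at 308 ± 33.2, then Hsp90b1 at 257 ± 32.2 and Hspa5 at 249 ± 47.0 (SD, n = 3). P4hb, Calr and Pdia3 differed from one another by less than their standard deviations, as did Hsp90b1 and Hspa5. Derl3 was the lowest of the 40 genes, at 3.75 ± 1.38 in controls and 6.10 ± 0.108 in knockouts. Among the sensors the order was Ern1 at 29.6 ± 4.01, Atf6 at 19.4 ± 3.03 and Eif2ak3 at 14.1 ± 1.44. The exon length counts every annotated isoform, so genes with long rare exons are placed too low.

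Promoters were searched because most of these genes were high together in 1 library. The ER stress response element (ERSE), written CCAAT, then 9 bases of any kind, then CCACG, is bound by NF-Y at its CCAAT part and by ATF6 at CCACG, and was defined on promoters of ER chaperones, some of them in this list. RefSeq windows (GRCm38.p6) from 250 bases before to 50 bases after the start were matched for 34 of the 40 genes, Ero1l under its current symbol; Manf, Hyou1, Derl1, Atf6, Ppp1r15b and Sec61a1 had no entry. On either strand, 9 of the 34 genes held an exact ERSE, and 0.137% of all 27025 genes with a window did (0.119% of all windows). The shorter ERSE-II, written ATTGG, 1 base of any kind and CCACG, was found in 2 of the 34, Herpud1 and Dnajb11, against 0.0444% of all genes. The core of the unfolded protein response element, TGACGTG, was in 3 of 34, against 2.22%, and a plain CCAAT in 25 of 34, against 41.1%. An ERSE holds a CCAAT by construction, as ERSE-II does on the opposite strand. The matches that end before the start, apart from those of Derl3 and Herpud1, are shown from 5′ to 3′ on the gene's strand with the element in capitals. They show the fixed ends of the element and its free spacer. In Hsp90b1 proximal, Calr and Creld2 the element lies on the opposite strand, and reads CGTGG, 9 free bases and ATTGG. The Hspa5 stretch is shorter because an annotated exon overlaps it.
Hspa5, chr2:34772020-34772048, plus strand: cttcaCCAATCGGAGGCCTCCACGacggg
Hsp90b1 distal, chr10:86705623-86705671, minus strand: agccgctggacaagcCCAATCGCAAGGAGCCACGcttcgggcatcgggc
Hsp90b1 proximal, chr10:86705518-86705566, minus strand: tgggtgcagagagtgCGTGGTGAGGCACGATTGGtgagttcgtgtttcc
Calr, chr8:84847060-84847108, minus strand: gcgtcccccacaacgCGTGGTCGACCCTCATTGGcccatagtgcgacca
Canx, chr11:50325785-50325833, minus strand: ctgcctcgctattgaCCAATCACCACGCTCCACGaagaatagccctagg
Dnajc3, chr14:118937812-118937860, plus strand: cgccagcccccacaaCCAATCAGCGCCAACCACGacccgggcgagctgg
Creld2, chr15:88819505-88819553, plus strand: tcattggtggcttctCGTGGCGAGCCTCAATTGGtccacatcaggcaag
Pdia6, chr12:17266476-17266524, plus strand: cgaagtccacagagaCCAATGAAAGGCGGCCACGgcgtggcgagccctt
Syvn1, chr19:6046517-6046565, plus strand: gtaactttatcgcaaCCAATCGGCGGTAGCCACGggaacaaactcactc

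For Derl3 and Herpud1, the genes nearest the threshold, the whole 250 bases before the start are given, again with the element in capitals. Derl3 holds its ERSE on the opposite strand, from 156 to 138 bases before the start, and Herpud1 an ERSE-II from 52 to 42 bases before it.
Derl3, chr10:75893148-75893397, plus strand: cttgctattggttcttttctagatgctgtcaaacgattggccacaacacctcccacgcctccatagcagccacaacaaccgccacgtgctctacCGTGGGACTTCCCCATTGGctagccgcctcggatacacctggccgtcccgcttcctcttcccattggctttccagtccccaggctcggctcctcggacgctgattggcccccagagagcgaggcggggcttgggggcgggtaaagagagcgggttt
Herpud1, chr8:94386179-94386428, plus strand: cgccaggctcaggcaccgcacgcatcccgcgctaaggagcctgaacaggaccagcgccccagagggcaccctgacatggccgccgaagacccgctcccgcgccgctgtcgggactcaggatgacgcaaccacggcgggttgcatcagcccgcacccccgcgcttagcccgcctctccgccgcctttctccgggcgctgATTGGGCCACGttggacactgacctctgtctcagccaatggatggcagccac

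The 11 genes with an ERSE or ERSE-II were higher in control replicate 3 than in the other controls by a median of 0.49 on the log2 scale, with all 11 on that side. For the 23 genes with neither the median was 0.41, with 22 on that side. The 18 other genes of the table with an element and a mean count of 50 or more had a median of -0.13, and the 11672 with neither 0.03. Between genotypes the median log2 fold change was -0.04 for the 11 genes with and -0.09 for the 23 without an element; the 6 genes with no window belong to neither. Set against control replicates 1 and 2 alone, the medians were 0.13 with and 0.02 without an element; the difference between these sets was not tested. A match says only that these letters stand in the window.

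Genes of the same pathway outside the 40 were read from further lists. Of 24 genes of the translocon, signal peptidase and oligosaccharyltransferase, 0 passed, and the log2 fold changes ran from -0.26 (Ostc) to 0.10 (Sec11c), with a median of -0.12. The median was 0.05 without control replicate 3, and 2 then passed as higher. Control replicate 3 held the highest count for 23 of these 24 genes, and its median difference from the other controls was 0.41. That difference was smaller in the other lists, at 0.15 for 18 other ERAD genes (highest for 14), 0.13 for 16 genes of unfolded protein response signalling (highest for 9) and 0.09 for 22 other chaperones and oxidoreductases (highest for 12). Of 18 other ERAD genes 0 passed, from -0.17 (Ube2j1) to 0.10 (Aup1), and of 16 genes of unfolded protein response signalling 0 passed, from -0.19 (Bax) to 0.50 (Stc2); without control replicate 3, 1 of the latter passed as higher, Creb3l1. Among 22 other chaperones and oxidoreductases 0 passed; the lowest was Dnajc10, an ER disulphide reductase, at -0.20. The highest was Pdia2, the isomerase of pancreatic acinar cells, at 3724 ± 1380 in controls and 7588 ± 1513 in knockouts (1.03 ± 0.35, adjusted p = 0.0990), beside acinar marker sums that were 2.17 times as high in knockouts.

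The integrated stress response, which PERK shares with sensors of amino acid and haem shortage, was the exception. Its list was chosen with earlier results of these data known, so the share below is not a test of enrichment. Of 12 genes, 5 rose (Nupr1, Asns, Ddit4, Trib3 and Eif4ebp1) and 0 fell in DESeq2, where 1.53% of all genes rose and 0.657% fell. Over all 110 other pathway genes these were the 5 that passed, and the count was 2 without knockout replicate 1, without knockout replicate 2 or without knockout replicate 3, and 10 without control replicate 3. Without control replicate 1 it was 5, of which 3 rose and 2, Sec61g and Bax, fell. In edgeR 1 passed, Nupr1, a small stress-induced chromatin protein, with an adjusted p of 0.00819. Nupr1 had 2859 ± 459 normalized counts in controls and 6849 ± 920 in knockouts (1.26 ± 0.13 on the log2 scale) and Asns, asparagine synthetase, had 7546 ± 1143 and 10555 ± 57.3 (0.48 ± 0.11). With all libraries, none of the branch's transcription factors Atf4, Ddit3, Atf3 and Atf5 passed. Their log2 fold changes were -0.007, 0.02, 0.07 and 0.42, the last with a DESeq2 adjusted p of 0.1155. Without control replicate 3, Atf5 passed at 0.62 (DESeq2 adjusted p = 4.17e-05), and Atf4, Ddit3 and Atf3 were at 0.02, 0.07 and -0.23. In that fit 7 of the 12 genes passed as higher, against 3.80% of all genes. Beside this list, marker sums in knockouts were 2.17 (acinar), 1.69 (mesenchymal), 1.07 (macrophage) and 0.68 (alpha cell) times those in controls. Markers that passed as higher were 0 of 12 acinar, 5 of 8 mesenchymal, 4 of 8 macrophage, 2 of 6 duct and 3 of 7 hepatocyte markers. Of 7 alpha-cell markers 4 passed as lower. The part of these cell types in the rise of this list was not tested. In these 12 genes too control replicate 3 was above the other controls, by a median of 0.23 on the log2 scale with 10 genes on that side, although a library other than control replicate 3 was the highest for each.

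**Figure D4:**
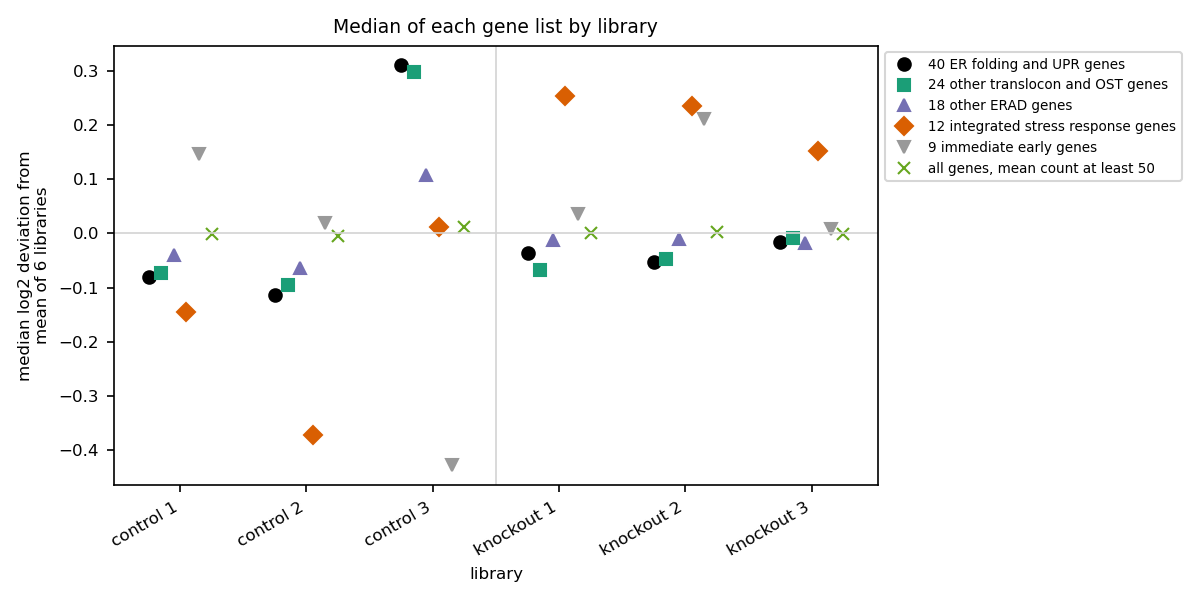
Median deviation, on the log2 scale, of each gene list from the mean of the 6 libraries, by library. In control 3 the 40 ER genes and the 24 other translocon genes stand at 0.31 and 0.30, while the integrated stress response genes are at 0.15 to 0.25 in the 3 knockouts and at -0.37 to 0.01 in the controls.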

How the data were processed

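Polyadenylated RNA from islets of 3 control and 3 knockout mouse libraries was sequenced, and the authors deposited raw counts per gene for 55536 genes. The submitters' processing notes name FastQC, STAR, featureCounts, DESeq2 and the mm10 build, without versions; strand settings are not given in the sources used here, so reads of overlapping genes on opposite strands cannot be told apart (15 of the 40 genes have such a partner). Gene symbols and positions matched GENCODE (GRCm38) for all 55536 identifiers.

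Counts were tested with DESeq2 1.42.0 in R 4.3.3 (Wald test of knockout over control, on genes whose counts summed to 10 or more, Benjamini-Hochberg adjusted p under 0.05). The alternatives were edgeR 4.0.16 (quasi-likelihood), TMM factors, other filters, an adjusted p of 0.1, a replicate block and leaving out each library. Totals of 101277200 to 110243918 counts per library leave little counting error; 3 counts, the limit that a count of 0 allows, were 0.0272 to 0.0296 CPM. The procedure was also run on simulated counts drawn independently for each gene and library. No simulated library deviated as control replicate 3 did, so that run did not cover this feature of the data. Heat map values are log2(normalized count + 1).

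The 40 genes and all lists were chosen with earlier results of these data known. Counts per library are given for Hspa5, Xbp1, Ern1, Eif2ak3, Atf6, any gene past the threshold, the highest and lowest of each role, and genes whose groups did not overlap. Ppp1r15a, Creld2 and the other genes outside this rule were named after their values were seen. Of the other lists, genes past the threshold or the highest and lowest are named, and Atf4, Ddit3, Atf3, Atf5, Sec61g, Creb3l1 and Ero1lb were added after their values were seen.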

Additional observations from a re-analysis of the deposited data

How the results depend on the processing

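Against 389 genes past the threshold in all (272 higher, 117 lower), edgeR gave 29 (24 higher, 5 lower), an adjusted p of 0.1 gave 614, and leaving out 1 library gave 153 (without knockout replicate 1) to 952 (without control replicate 3). Of the 40 ER genes 0 passed; TMM factors, no filter and a stricter filter each gave 1 (Derl3), an adjusted p of 0.1 gave 2, and leaving out 1 library 0 to 6. Of the other pathway genes 5 passed, 1 in edgeR and 2 to 10 when 1 library was left out, with 10 without control replicate 3. The median log2 fold change of the 40 genes ran from -0.15 to 0.05 when 1 library was left out. Among 19 named genes and 13 alternatives, 220 of 247 results stayed on the same side of 0 and of the threshold, 14 moved past the threshold with their sign kept and 13, in 5 genes, changed sign, of which Pdia6 without control replicate 3 also passed (DESeq2 adjusted p = 0.00361). Over all 40 genes, 19 changed sign without control replicate 3. Ssr4 was at 0.0022 in edgeR, 0.0022 with TMM factors and 0.00041 with the stricter filter, and ran from -0.061 to 0.051 when 1 library was left out. Over the same left-out libraries Pdia6 ran from -0.17 to 0.23, Sdf2l1 from -0.051 to 0.54, Xbp1 from -0.19 to 0.019 and Eif2ak3 from -0.076 to 0.094. The cause was not tested. The excess in control replicate 3, 0.43 on the log2 scale, was 0.37 with total-count scaling, 0.43 with upper-quartile scaling and 0.37 with totals without Ins1, Ins2 and Gcg; these scalings were chosen after seeing the data.

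Over 15811 genes, libraries with the same replicate number did not deviate together (correlations of -0.05, -0.06 and 0.01). A correlation over all genes, with 3 libraries per group, cannot decide whether the numbers pair them. With the replicate block, 405 genes, 7 other pathway genes and 3 of the 40 ER genes passed: Derl3 (0.75, DESeq2 adjusted p = 0.00867), Dnajb9 (-0.36, 0.000726) and Manf (-0.33, 0.0228). Pdia6 was then at 0.00076 and Ssr4 at 0.0013.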

Other observations

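Of 18 genes of collagen folding and modification, 0 passed (DESeq2), with a median log2 fold change of -0.01. Serpinh1, the collagen chaperone HSP47, had 6281 ± 502 normalized counts in the 3 control libraries and 7477 ± 432 in the 3 knockout libraries (mean ± SD). The difference on the log2 scale was 0.25 ± 0.09, with an adjusted p of 0.112, beside mesenchymal marker sums of 51698 to 68986 and 98051 to 104531. P4ha3, a collagen prolyl hydroxylase subunit, lay on the other side, at 47.6, 61.4 and 42.4 in controls and 20.8, 18.6 and 16.0 in knockouts (-1.45 ± 0.47, adjusted p = 0.0700).

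Ero1lb, the oxidase that beta cells use to make disulphide bonds, varied widely between libraries of 1 genotype. It was at 125780, 79447 and 88960 normalized counts in controls and at 79396, 168642 and 75756 in knockouts, high in control replicate 1 and knockout replicate 2. Its log2 fold change was 0.14 ± 0.42 (DESeq2 adjusted p = 0.963), 0.36 without control replicate 1 and 0.07 without control replicate 3. This gene was singled out after its values were seen. The library with the highest Ero1lb count was not control replicate 3, where most of the 40 ER genes were highest.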
